A study of Homo sapiens with 32 samples.

Results

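The 7 genes described here are the human JUN family (JUN, JUNB, JUND) and FOS family (FOS, FOSB, FOSL1, FOSL2), whose proteins pair to form the transcription factor AP-1. They were taken as the entries of the deposited count table whose Ensembl identifiers carry these GENCODE symbols, which gave 7 of 17788 genes. The table covers 32 RNA-seq libraries of MCF10A, an immortalized human mammary epithelial cell line. Clones 27 and 2 carried wild-type JUNB (WT), and clones 1 and 65 had JUNB disrupted by CRISPR/Cas9 editing (mut). Each clone received either TGFβ1, a cytokine that drives the epithelial-mesenchymal transition (EMT) in these cells, at 5 ng/ml for 6, 24 or 72 h, or solvent (BSA in PBS).

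Every clone was sampled in 2 replications under 4 treatments, which made 8 groups of 4 libraries. All cells grew in medium with horse serum, EGF, hydrocortisone, cholera toxin and insulin, so EGF and serum factors were present in solvent and in TGFβ1 alike. The sample labels give the solvent libraries the time 0, whereas the study describes a solvent exposure of 72 h and a common harvest of all plates. Each clone, WT clones included, grew from a single cell after delivery of Cas9 and guide RNAs, so 2 clones stand for each genotype and a difference between genotypes cannot be told apart from a difference between clones. The labels name the edited clones JUNB knock-out, and the study describes extended deletions that left a smaller TGFβ1-inducible polypeptide instead of full-length JUNB. The study calls the replications independent biological replicates. A clone with 1 replication number is called a series and written as 27-2 for clone 27, replication 2.

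Library totals lay between 39702412 and 54651906 counts, and the lowest count of any of the 7 genes in a library was 59. The 10 mammary epithelial markers looked up were all expressed, with KRT5 between 3262 and 8158 CPM (counts per 1e+06 counts of a library) and CDH1 between 147 and 599 CPM. Of 10 markers of other cell types, PECAM1, CDH5 and ADIPOQ matched no named gene of the count table, and PTPRC, CD3E, VWF and ALB stayed at or below 0.140 CPM. PDGFRB reached 0.843 CPM, while CD14 lay between 2.29 and 28.1 CPM and COL1A1 between 3.16 and 73.4 CPM. In WT at 24 h CD14 stood at 3.36 CPM and COL1A1 at 61.4 CPM, against 14.9 and 8.32 CPM in WT solvent, and CD14 stood at 25.7 CPM in mut solvent. Their part in the results below was not tested. The 4 libraries of the WT series 27-2 stood apart on the third principal component of all genes (10.2% of the variance), with scores of 44 to 56.3 against -37.0 to 17 elsewhere. In the mut series 1-2, the solvent library had a first-component score of -39.4 against -65.7 to -61.8 in the other 3 mut solvent libraries. Member results whose call changed without either series are given both ways. A change within WT compares no library of 1-2, and a change within mut none of 27-2. Such a call moves only through the fit shared by all libraries.

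AP-1 proteins bind DNA as dimers through a basic leucine zipper. JUN proteins pair with each other or with FOS proteins, whereas FOS proteins need a JUN partner, and the dimers recognize the TPA response element (TRE) and the related cAMP response element (CRE). JUN and FOS are immediate early genes, switched on by growth factors and stress through MAP kinases, and TGFβ signalling reaches many of its target genes where SMAD proteins and AP-1 act together. JUNB is a direct target of TGFβ signalling, JUND is broadly expressed in most cell types, and FOSL1 and FOSL2 (also known as FRA-1 and FRA-2) are FOS family proteins without the strong activation domain of FOS. Abundance was tested with limma-voom over 14865 genes, and a gene is called when its Benjamini-Hochberg adjusted p-value was under 0.05. All 7 members passed the filter on low counts. Values of 4 libraries are given in the order 27-1, 27-2, 2-1, 2-2 for WT and 1-1, 1-2, 65-1, 65-2 for mut.

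The promoter windows of JUN, JUNB and FOS are shown because these transcripts changed under TGFβ1 in both genotypes. Each window runs from 250 to 11 bases before the RefSeq start of transcription, read from RefSeq on GRCh38.p14, 5′ to 3′ on the strand of the gene. The windows lie at chr1:58784058-58784297 on the minus strand for JUN, chr19:12791236-12791475 on the plus strand for JUNB and chr14:75278578-75278817 on the plus strand for FOS. Capitals mark a match to a searched motif.
JUN: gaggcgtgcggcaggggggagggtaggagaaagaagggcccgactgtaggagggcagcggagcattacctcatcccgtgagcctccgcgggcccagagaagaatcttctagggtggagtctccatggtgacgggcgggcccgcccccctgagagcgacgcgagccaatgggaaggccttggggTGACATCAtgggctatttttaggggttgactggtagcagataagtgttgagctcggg
JUNB: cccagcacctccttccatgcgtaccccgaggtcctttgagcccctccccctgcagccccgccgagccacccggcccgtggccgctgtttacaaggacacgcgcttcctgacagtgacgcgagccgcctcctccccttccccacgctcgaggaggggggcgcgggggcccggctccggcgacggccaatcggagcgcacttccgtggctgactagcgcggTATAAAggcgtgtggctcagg
FOS: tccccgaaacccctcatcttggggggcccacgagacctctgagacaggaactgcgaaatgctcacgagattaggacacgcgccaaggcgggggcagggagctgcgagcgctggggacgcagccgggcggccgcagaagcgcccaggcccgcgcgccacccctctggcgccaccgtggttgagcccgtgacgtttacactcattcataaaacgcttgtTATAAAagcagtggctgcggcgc

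Motifs were searched on both strands in the 250 bases before the start of 6 members, since FOSL1 was not among the promoters used. The motifs were the TRE as TGANTCA, a CRE-like sequence as TGANNTCA, a SMAD motif as CAGACA, the TATA box as TATAAA and the serum response factor motif known as the CArG box. They occur in 6.57%, 10.14%, 13.61%, 10.72% and 1.16% of 35116 RefSeq promoters of that length. JUN held the CRE-like letters TGACATCA at -67 to -60. JUNB, FOS and FOSB held TATAAA, at -31 to -26, -33 to -28 and -30 to -25. JUND held TGACGTCA at -200 to -193 and TGAGCTCA at -54 to -47, and FOSL2 held none of the 5 motifs. No window held the TRE letters, the SMAD letters or a CArG box, which says only that these letters are not in these windows.

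The genes differ in how much exon they offer to reads, so levels of different genes were compared as CPM per kb of exon. The union of annotated exons measures 3624 bp for JUN (ENSG00000177606, chromosome 1, 58776845 to 58784048, minus strand) and 1830 bp for JUNB (ENSG00000171223, chromosome 19, 12791486 to 12793315, plus strand). It measures 1929 bp for JUND (ENSG00000130522, chromosome 19, 18279694 to 18281622, minus strand) and 3186 bp for FOS (ENSG00000170345, chromosome 14, 75278826 to 75282230, plus strand). It measures 5553 bp for FOSB (ENSG00000125740, chromosome 19, 45467995 to 45475179, plus strand) and 1887 bp for FOSL1 (ENSG00000175592, chromosome 11, 65892049 to 65900573, minus strand). For FOSL2 (ENSG00000075426, chromosome 2, 28392448 to 28417317, plus strand) it measures 7162 bp. All coordinates are those of GENCODE on GRCh38. JUNB shares 259 bp of its exons (14.2%) with HOOK2 on the opposite strand, and the library kit keeps no strand. HOOK2 itself had group means of 14.1 to 26.2 CPM. FOSB overlaps ERCC1 and FOSL2 overlaps FOSL2-AS1, without shared exon bases.

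In WT solvent cells, JUNB was the most abundant member per length, with a level of 53.4 ± 7.06 CPM per kb (SD, n = 4). FOSL1 followed with 45.1 ± 7.07 and JUND with 38.0 ± 3.01 CPM per kb, and the libraries of neighbouring genes in this order overlapped. FOSL2 came next with a level of 19.8 ± 3.34 CPM per kb, below every JUND library. JUN with 11.4 ± 1.71 and FOS with 9.25 ± 1.74 CPM per kb overlapped each other and lay below FOSL2. FOSB was the least abundant member, with 0.351 ± 0.118 CPM per kb. In mut solvent cells the order of the mean levels was JUNB (61.0 ± 26.2 CPM per kb), JUND (46.9 ± 2.32), FOSL1 (35.4 ± 5.38), FOSL2 (32.6 ± 3.77), JUN (21.7 ± 2.56), FOS (11.1 ± 1.19) and FOSB (0.337 ± 0.0496). There JUND lay above FOSL1 and JUN above FOS without overlap of the libraries, while JUNB overlapped JUND, and FOSL1 overlapped FOSL2. The JUNB length was that of the unedited gene in mut as well, although the study describes extended deletions there. Levels of JUNB per kb in mut are therefore not directly comparable with those in WT or of other genes.

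The makeup of the JUN family under TGFβ1 moved from JUND towards JUN and, up to 24 h, JUNB. In WT cells the summed JUN family level was 103 ± 8.27 CPM per kb in solvent and went to 204 ± 21.0 after 6 h, 236 ± 17.2 after 24 h and 174 ± 6.69 after 72 h of TGFβ1. JUND made up 37.1 ± 3.21% of it in solvent and 17.5 ± 1.21% at 24 h. The share of JUNB went from 51.8 ± 2.86% to 62.7 ± 1.47%, and that of JUN from 11.2 ± 1.86% to 19.8 ± 0.980% over the same interval. At 72 h the JUN share was the highest of the WT groups, 25.5 ± 1.65%, while the JUNB share was 53.1 ± 1.37%, inside its solvent range of 49.2% to 55.4%. In mut solvent cells JUN made up 17.1 ± 2.50% of the JUN family, with a range of 14.7% to 19.7% against 9.06% to 12.9% in WT. The summed FOS family level moved far less, between group means of 62.2 and 74.5 CPM per kb in WT and 75.1 and 83.8 CPM per kb in mut. Within it, FOSL1 made up 60.4 ± 7.54% in WT solvent and 44.4 ± 2.65% in mut solvent, and FOSL2 26.7 ± 5.17% and 41.0 ± 1.27%. These shares are descriptions without a test, and they count RNA, not protein. In mut, the JUN family sums and shares also rest on the unedited JUNB length, so they are not directly comparable with WT.

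**Figure D1:**
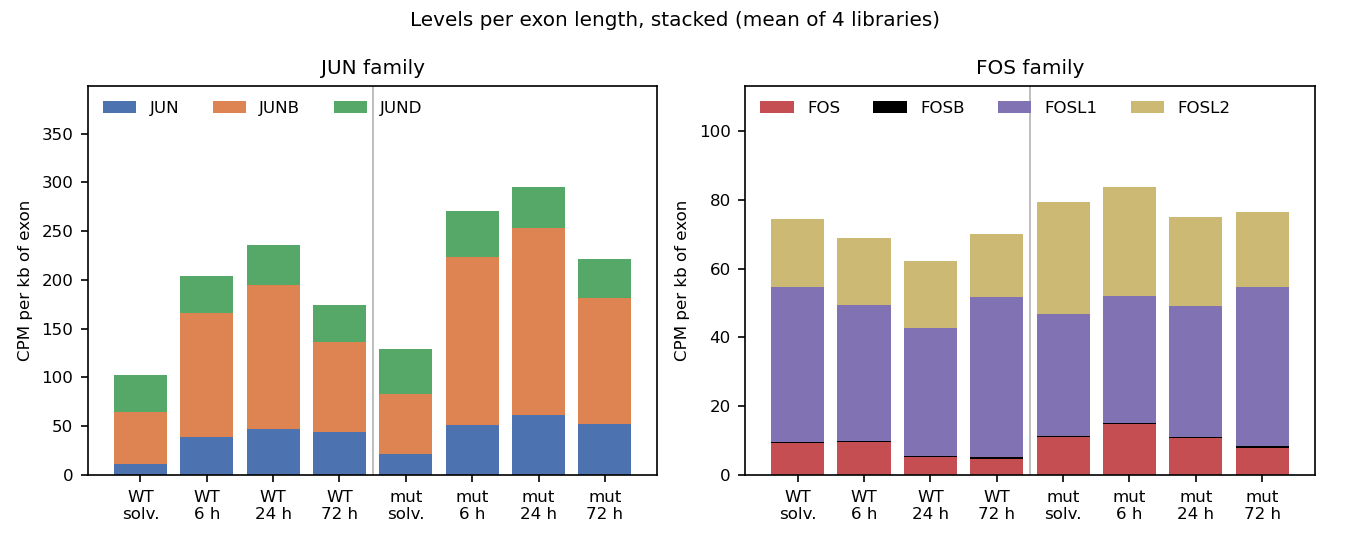
Stacked mean levels (CPM per kb of exon, y axis; mean of 4 libraries) of the JUN family (left) and the FOS family (right) in the 8 groups, WT on the left of the grey line and mut on the right; no error is drawn. The JUN stack grows from 103 to 236 CPM per kb in WT between solvent and 24 h of TGFβ1, and the FOSL2 segment is taller in mut than in WT solvent. The JUNB segment is scaled by the unedited exon length in mut as well.

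The first comparison asks how TGFβ1 changed each transcript. JUN and JUNB were the 2 members that rose at every time in both genotypes, and FOS fell late. In WT cells 9 of 21 results (7 genes at 3 times) were called, and in mut cells 10 of 21. Of all genes tested, 17%, 52.1% and 52.2% were called in WT at the 3 times, and in mut 7%, 23.8% and 24.1%. Among the members these numbers were 2, 3 and 4 of 7 in WT and 2, 2 and 6 of 7 in mut. The 3 times share their solvent libraries, so they are not independent of each other. With scaling by library size the median change of all genes in WT was -0.18 at 24 h and -0.19 at 72 h on the log2 scale. In bulk RNA, fewer cells with a transcript and less transcript per cell cannot be told apart.

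JUN, the founding AP-1 subunit and a strong activator, rose most of the 7 in WT cells. Its levels in the 4 WT solvent libraries were 45.5, 45.6, 42.4 and 32.4 CPM. After 6 h of TGFβ1 they were 148, 127, 152 and 136.5 CPM, after 24 h 183, 160.3, 170.5 and 163 CPM, and after 72 h 165, 138, 175 and 166 CPM. All 12 treated WT libraries lay above all solvent libraries. The log2 fold change was 1.77 ± 0.17 (SE; adjusted p = 4.66e-08) at 6 h, 2.04 ± 0.17 (adjusted p = 1.5e-10) at 24 h and 1.96 ± 0.17 (adjusted p = 3.3e-10) at 72 h. Neither later step passed the test, from 6 to 24 h (0.27 ± 0.15, adjusted p = 0.205) or from 24 to 72 h (-0.08 ± 0.15, adjusted p = 0.832). Without the mut series 1-2 the step from 6 to 24 h did (0.27, adjusted p = 0.0313), through the shared fit alone.

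In mut cells, where JUNB rose more than JUN at 6 and 24 h, JUN started from higher levels, 77.8, 71.9, 72.95 and 92.0 CPM in solvent. It reached 208, 114, 205 and 219 CPM at 6 h, 238, 221, 199.6 and 234 CPM at 24 h, and 173, 262, 152 and 178 CPM at 72 h. Again no treated library overlapped the solvent libraries. At 6 h the series 1-2 lay well below the other 3, and at 72 h it was the highest. The log2 fold changes were 1.21 ± 0.16 (adjusted p = 2.59e-05), 1.51 ± 0.16 (adjusted p = 1.03e-07) and 1.26 ± 0.16 (adjusted p = 1e-06). With mut clone 1 alone, the change at 6 h was 1.04 and did not pass the test (adjusted p = 0.116).

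JUNB, the edited gene, rose in both genotypes, and its mean was lower at 72 h than at 24 h. That later step did not pass the test in WT (-0.68 ± 0.32, adjusted p = 0.215) or in mut (-0.61 ± 0.32, adjusted p = 0.348). Blocked by series, it was called. WT solvent libraries had 89.7, 94.0, 117 and 90.0 CPM. They had 217, 187, 250.5 and 276 CPM at 6 h, 297, 261, 248.5 and 277 CPM at 24 h, and 165, 163, 173 and 175 CPM at 72 h, so the 24 h libraries all lay above the 72 h libraries. The log2 fold change against solvent was 1.25 ± 0.33 (adjusted p = 0.00901), 1.48 ± 0.33 (adjusted p = 0.000416) and 0.80 ± 0.33 (adjusted p = 0.0446). No WT library with TGFβ1 overlapped the solvent libraries. The call at 72 h was lost without the solvent or the 72 h library of 27-1 or of 27-2, without solvent 2-2 and without 72 h 2-1 or 2-2 (0.76 to 0.82, adjusted p = 0.0645 to 0.0877), and also without the whole series 27-2 (0.80, adjusted p = 0.102) and without the filter on low counts (adjusted p = 0.0538). With counts summed over the replications of a clone, the changes at 6 and 72 h were 1.24 and 0.79 and lost the call (adjusted p = 0.0974 and 0.164).

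JUNB counts differed between the mut clones. They cover the unedited gene, and whether both clones lost the same stretch of it was not tested here. In solvent they were 69.2 and 77.5 CPM in clone 1 and 128 and 172 CPM in clone 65. At 6 h they were 202 and 129 CPM against 436 and 493.5 CPM, at 24 h 253 and 254 CPM against 380.2 and 518 CPM, and at 72 h 122.5 and 234 CPM against 228 and 359 CPM. Clone 65 lay above clone 1 in every library at solvent, 6 h and 24 h, and the clones overlapped at 72 h. The log2 fold change over both clones was 1.39 ± 0.33 (adjusted p = 0.0106) at 6 h, 1.68 ± 0.33 (adjusted p = 0.000463) at 24 h and 1.08 ± 0.33 (adjusted p = 0.0169) at 72 h. JUNB was higher in 4 of 4 series at each time, by 0.74 to 1.77, 1.57 to 1.87 and 0.82 to 1.59. At 6 h the call was lost without solvent 1-1 (1.2), without 6 h 65-1 (1.17) and without 6 h 65-2 (1.11), with adjusted p = 0.0529 to 0.0791. At 72 h it was lost without solvent 1-1 (0.88), solvent 1-2 (0.93), 72 h 65-2 (0.84) or the series 1-2 (0.90, adjusted p = 0.0628). Clone 1 taken alone at 6 h gave 1.14 (adjusted p = 0.116). Sums of the replications ended the calls at 6 and 72 h (1.41 and 1.13, adjusted p = 0.128 and 0.101), and a fit on the compared groups alone that at 6 h (adjusted p = 0.0784).

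**Figure D2:**
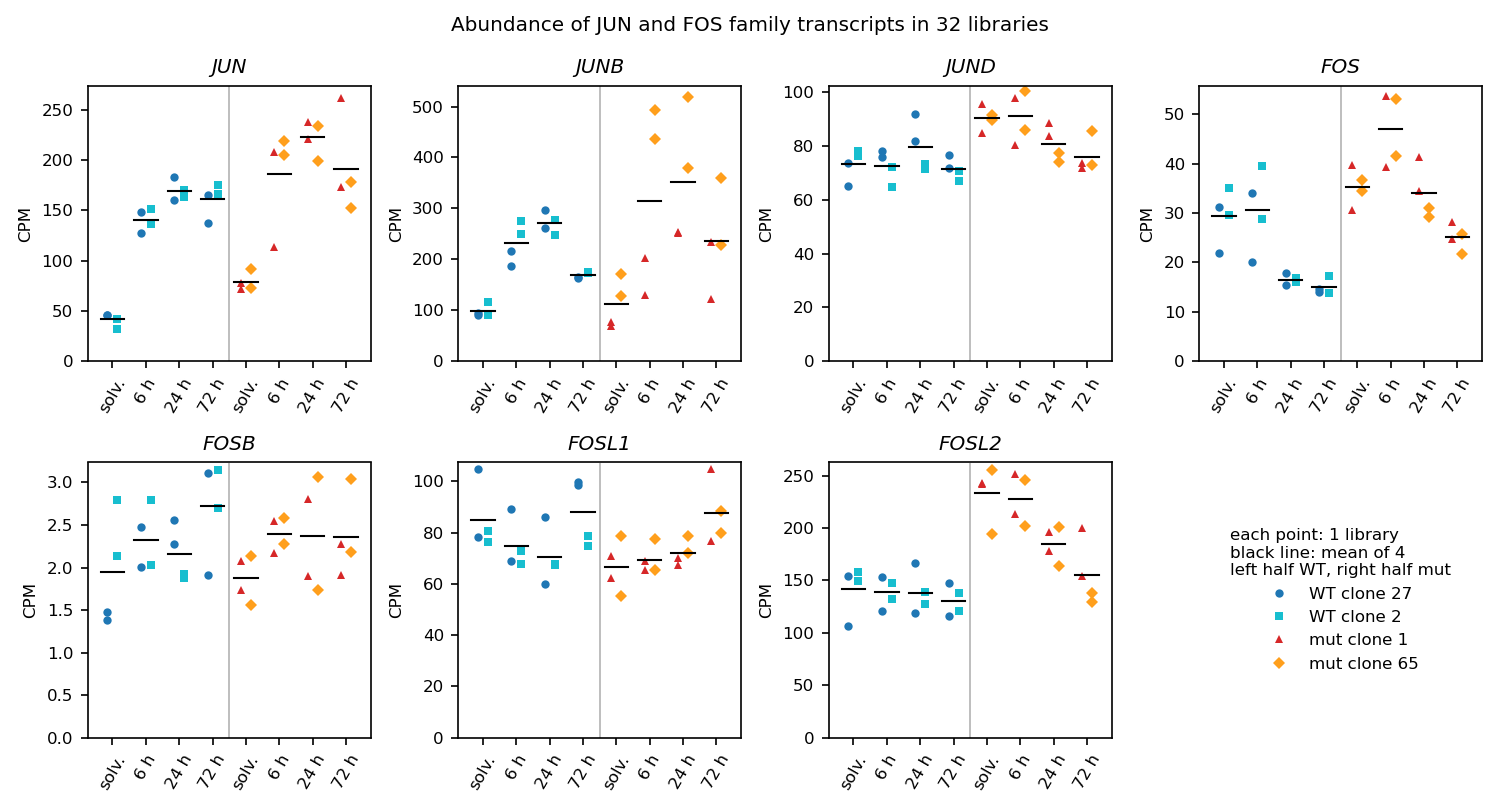
Levels (CPM, y axis from 0) of the 7 transcripts in 32 libraries, 1 point for each library, with the colour and shape marking the clone and a black line the mean of 4 libraries. WT groups are left of the grey line and mut groups right of it; JUN lies at 114 CPM or higher in every library with TGFβ1 and at 92.0 CPM or lower in every solvent library, and JUNB of mut clone 65 (diamonds) reaches 518 CPM.

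JUND, the broadly expressed JUN family member, gave TGFβ1 calls that depended on the scaling. Its group means in WT lay between 71.6 and 79.7 CPM, with log2 changes of -0.01, 0.12 and -0.03 that did not pass the test (95% intervals within -0.21 to 0.29). At 24 h in WT it rose with TMM factors (0.296, adjusted p = 0.00498), in the edgeR test (0.30, adjusted p = 0.00433) and in DESeq2 (0.303, adjusted p = 0.00175), as it did from 6 to 24 h (0.232 to 0.235, adjusted p = 0.033 to 0.0422 in these 3 fits, against 0.13 and adjusted p = 0.271). In mut libraries the solvent mean was 90.5 ± 4.47 CPM and the 72 h mean 76.1 ± 6.48 CPM. The 72 h libraries had 73.8, 71.7, 73.1 and 85.7 CPM against 95.5, 84.8, 91.7 and 89.9 CPM in solvent, so that 1 of them lay within the solvent range. This was a log2 change of -0.25 ± 0.08 (adjusted p = 0.0263), which TMM factors (-0.18, adjusted p = 0.142), the edgeR quasi-likelihood test (-0.17, adjusted p = 0.158) and DESeq2 (-0.17, adjusted p = 0.157) did not call. It was also lost without solvent 1-1 or 65-1, without 72 h 1-1, 1-2 or 65-1 (-0.25 to -0.23, adjusted p = 0.054 to 0.0822) and without the series 1-2 (-0.26, adjusted p = 0.067).

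FOS, the immediate early partner of JUN, fell in WT cells between 6 and 24 h. The WT solvent libraries had 31.3, 21.9, 35.1 and 29.6 CPM and the 6 h libraries 34.05, 20.2, 39.45 and 28.7 CPM. At 24 h they had 17.8, 15.35, 16.02 and 16.9 CPM and at 72 h 14.7, 14.02, 17.25 and 13.9 CPM. Each later library lay below each solvent and 6 h library, and the lowest solvent and 6 h values were those of the series 27-2. The log2 fold change against solvent was 0.01 ± 0.16 (adjusted p = 0.969) at 6 h, -0.82 ± 0.17 (adjusted p = 0.000221) at 24 h and -0.97 ± 0.18 (adjusted p = 4.16e-05) at 72 h. The step from 6 to 24 h was -0.83 ± 0.17 (adjusted p = 0.000498), where 28.2% of all genes were called. These 3 falls were called under every alternative run on them.

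In mut cells the FOS transcript had levels of 39.7, 30.6, 36.6 and 34.4 CPM in solvent. The 6 h libraries had 53.8, 39.3, 53.1 and 41.6 CPM, the 24 h libraries 34.6, 41.3, 31.0 and 29.2 CPM and the 72 h libraries 24.8, 28.1, 25.75 and 21.6 CPM. Only the 72 h libraries lay outside the solvent range altogether. The log2 changes were 0.40 ± 0.14 (adjusted p = 0.0839), -0.06 ± 0.15 (adjusted p = 0.815) and -0.49 ± 0.15 (adjusted p = 0.0202). At 6 h FOS was higher in 4 of 4 series, by 0.27 to 0.54, and blocking by series (a replicate block) made this change a call (0.41, adjusted p = 0.0099), as did DESeq2 (0.47, adjusted p = 0.0297) and leaving out the series 27-2 (0.40, adjusted p = 0.0289). The step from 6 to 24 h in mut was -0.46 (adjusted p = 0.0723), and it was called without the series 27-2 (-0.46, adjusted p = 0.0209) or 1-2 (-0.64, adjusted p = 0.0281). The fall at 72 h was lost with TMM factors (-0.41, adjusted p = 0.0507), without solvent 1-1 (-0.43, adjusted p = 0.0675) and without 72 h 65-2 (-0.42, adjusted p = 0.0641).

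FOSB, a FOS relative with strong induction by stimuli in many cells, stayed low throughout, between 1.38 and 3.15 CPM. In WT it had 1.38, 1.48, 2.14 and 2.80 CPM in solvent and 1.91, 3.12, 3.15 and 2.70 CPM at 72 h. The groups overlapped, since both solvent libraries of clone 2 lay above the 72 h library 27-1. Both solvent libraries of clone 27 lay below every 72 h library. The log2 change of 0.52 ± 0.22 was just called (adjusted p = 0.0469). It was lost without solvent 27-1 (0.36), solvent 27-2 (0.42) or 72 h 27-2, 2-1 or 2-2 (0.44 to 0.52), with adjusted p = 0.0761 to 0.2, and without the series 27-2 (0.34, adjusted p = 0.277) or 1-2 (0.52, adjusted p = 0.0613). The call was also lost without the filter, with sums of the replications and in a fit on the compared groups alone (0.52 to 0.54, adjusted p = 0.0557 to 0.129).

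FOSL1, the FOS family member with the highest level per length in both solvent groups, rose in mut cells at 72 h. Its solvent libraries had 62.15, 70.8, 55.4 and 78.7 CPM and its 72 h libraries 76.8, 104.8, 79.7 and 88.6 CPM, with 1 of the latter inside the solvent range. The log2 change was 0.39 ± 0.13 (adjusted p = 0.023), and it was higher in 4 of 4 series, by 0.17 to 0.56. The call was lost without solvent 1-1 (0.36), solvent 65-1 (0.31), 72 h 1-2 (0.30) or the series 1-2 (0.33, adjusted p = 0.126), with adjusted p = 0.0647 to 0.111 for the single libraries. In WT all 4 series were lower at 24 h (log2 changes of -0.38 to -0.17), with a change of -0.27 ± 0.13 that did not pass the test (adjusted p = 0.0706). Blocking by series, it was called (-0.28, adjusted p = 0.0045). It was not called with TMM factors (-0.10, adjusted p = 0.581), edgeR (-0.10, adjusted p = 0.583) or DESeq2 (-0.09, adjusted p = 0.605).

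FOSL2 declined with time in mut cells. Its levels there were 242, 243, 194 and 255 CPM in solvent. After 6 h of TGFβ1 they were 213, 252, 202 and 246 CPM, after 24 h 178, 196, 164 and 201 CPM and after 72 h 154, 200.4, 129 and 138 CPM. By 72 h, 3 of 4 libraries were below the solvent range, and the library 1-2 remained inside it. The log2 change was -0.60 ± 0.13 (adjusted p = 0.00118) at 72 h. At 24 h it was -0.33 ± 0.13 (adjusted p = 0.062), lower in 4 of 4 series (-0.44 to -0.24), and called when blocked by series (-0.33, adjusted p = 0.00111) or without the series 27-2 (-0.33, adjusted p = 0.0296). Without the series 1-2 this change was not called (-0.34, adjusted p = 0.0884). Nor was it with TMM factors (-0.25, adjusted p = 0.189), edgeR (-0.25, adjusted p = 0.191) or DESeq2 (-0.24, adjusted p = 0.199). Of the calls in mut at 72 h, those of JUND, FOS and FOSL1 were lost with either mut clone alone (adjusted p = 0.0973 to 0.34), and that of FOSL2 with clone 1 alone (-0.46, adjusted p = 0.0972). In WT, group means stayed between 131 and 142 CPM, and the changes of -0.02, -0.03 and -0.11 did not pass the test, with 95% intervals within -0.38 to 0.25.

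**Figure D3:**
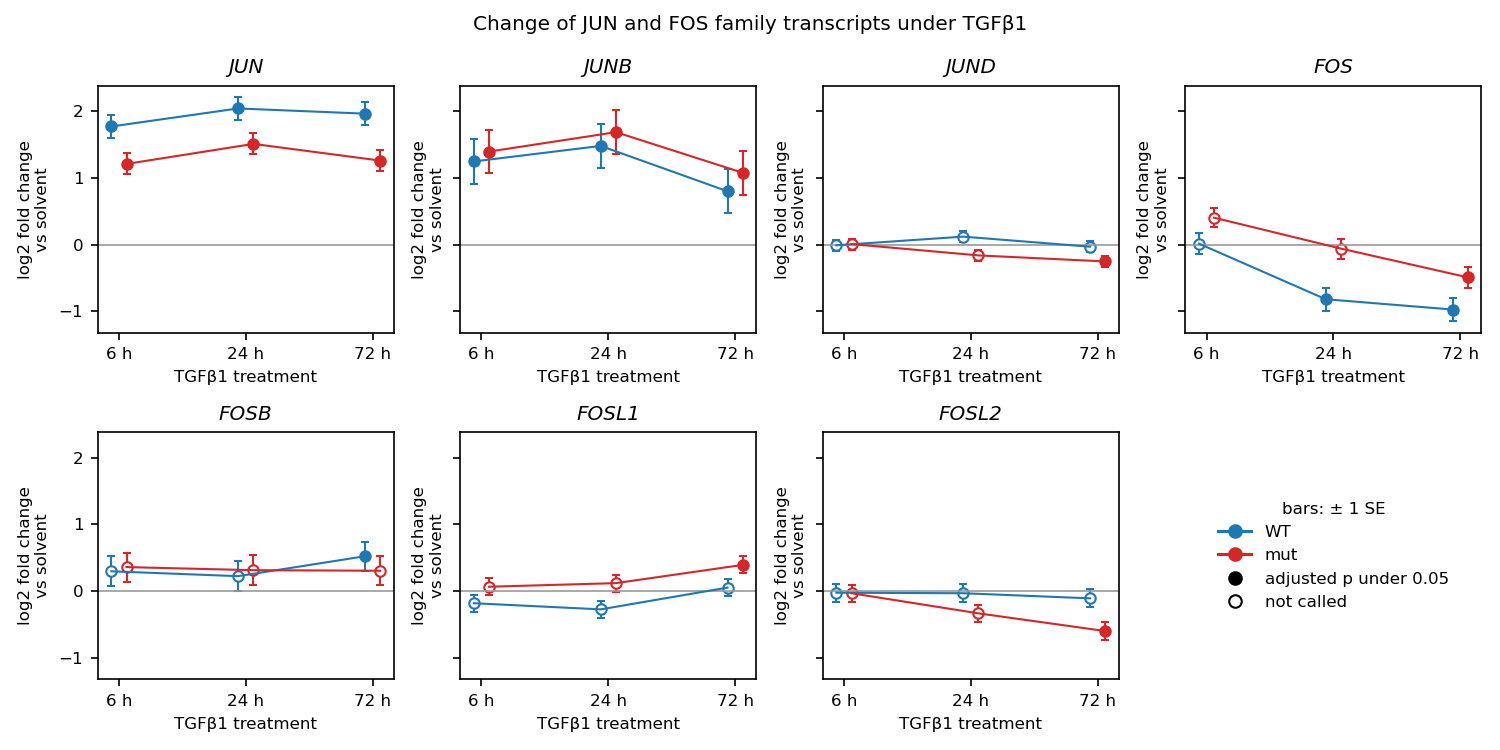
Log2 fold change (y axis) of each transcript after 6, 24 and 72 h of TGFβ1 against solvent (x axis) in WT (blue) and mut (red) cells, with bars of 1 SE; filled points passed the limma-voom test. JUN and JUNB are filled at every time in both genotypes, WT lies above mut for JUN at all 3 times, and FOS is lowest in WT at 72 h.

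Whether the response itself differed between genotypes was tested as an interaction, taken as the change in mut less that in WT, which needs no call in either genotype. Of 21 such results 2 were called, against 0.074% of all genes at 6 h, 9.65% at 24 h and 12.3% at 72 h. At 24 h FOS had the interaction 0.76 ± 0.23 (adjusted p = 0.0343), from a WT change of -0.82 and a mut change of -0.06. At 72 h JUN had -0.70 ± 0.23 (adjusted p = 0.0429), from 1.96 in WT and 1.26 in mut. For JUNB the interaction was 0.15 ± 0.47, 0.21 ± 0.47 and 0.28 ± 0.47 at the 3 times, with wide 95% intervals of -0.80 to 1.10, -0.74 to 1.16 and -0.68 to 1.23. At 6 h the limma-voom fit called 0 of 7 members, 1 had an unadjusted p under 0.05 (JUN, -0.56 ± 0.23, unadjusted p = 0.0215), and edgeR and DESeq2 called 0 as well.

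Both called interactions were sensitive to single libraries. That of FOS was also lost with TMM factors (0.67, adjusted p = 0.0753), edgeR (0.69, adjusted p = 0.0512) and sums of the replications (0.77, adjusted p = 0.0513). It was 0.66 to 0.77 (adjusted p = 0.0509 to 0.0829) without any of solvent 27-1, 2-1, 2-2, 1-2 or 65-2, or of the 24 h libraries 27-2, 2-1, 2-2, 1-1 or 1-2, and 0.60 (adjusted p = 0.143) without the series 1-2. That of JUN was -0.72 to -0.59 (adjusted p = 0.0578 to 0.106) without any of solvent 2-1, 2-2, 1-1 or 65-2, or of the 72 h libraries 27-1, 2-1, 2-2, 1-1, 65-1 or 65-2. Without the series 1-2 it was -0.91 (adjusted p = 0.000597), and without 27-2 it was -0.82 (adjusted p = 0.0326). It was lost with sums (-0.68, adjusted p = 0.0828) and without the filter (-0.70, adjusted p = 0.0514). Interactions gained as calls were JUN at 24 h without 1-2 (-0.57, adjusted p = 0.0288, against -0.53 and adjusted p = 0.15) and JUND at 24 h in DESeq2 (-0.36, adjusted p = 0.0375, against -0.28 and adjusted p = 0.138). FOSL2 at 72 h (-0.49, adjusted p = 0.082) was gained with TMM factors (-0.58, adjusted p = 0.0426), DESeq2 (-0.56, adjusted p = 0.0245) and without 1-2 (-0.60, adjusted p = 0.0393).

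The series pairs the libraries of 1 clone and replication, and with this replicate block 7 of 21 interactions were called, where 0.309%, 18.7% and 23.5% of all genes were called at the 3 times. At 24 h these were FOS (0.77, adjusted p = 0.00199), FOSL1 (0.39, adjusted p = 0.0169) and FOSL2 (-0.30, adjusted p = 0.0487). At 72 h they were JUN (-0.70, adjusted p = 0.0215), FOS (0.48, adjusted p = 0.0424), FOSL1 (0.34, adjusted p = 0.0289) and FOSL2 (-0.49, adjusted p = 0.00173). Steps between TGFβ1 times behaved likewise. Without the block, 1 of 28 steps was called (FOS in WT from 6 to 24 h), where the shares of all genes called were 28.2% and 7.83% for the earlier and later step in WT and 3.12% and 1.31% in mut. With the block 9 of 28 were called, and the shares of all genes were 37.7% and 17.4% in WT and 11.6% and 9.45% in mut.

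Among the blocked steps, JUNB fell from 24 to 72 h in WT (-0.68, adjusted p = 0.00322) and in mut (-0.61, adjusted p = 0.0147). FOS fell in WT from 6 to 24 h (-0.86, adjusted p = 4.24e-06). In mut it fell at both steps (-0.47, adjusted p = 0.00582, then -0.43, adjusted p = 0.0166). FOSL2 in mut fell at both steps (-0.30, adjusted p = 0.0104, then -0.26, adjusted p = 0.0266). FOSL1 rose from 24 to 72 h in WT (0.33, adjusted p = 0.0053) and in mut (0.28, adjusted p = 0.0296). So between 24 and 72 h JUNB came down and FOSL1 went up in both genotypes by this fit.

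The next comparison set mut against WT at each treatment, and 10 of 28 results were called, each with the higher level in mut. In solvent 12.7% of all genes and 3 of 7 members were called. With TGFβ1 the shares of all genes were 21.4%, 36.9% and 39.2% at the 3 times, and the members called numbered 3, 3 and 1. Of all genes called, 948 were higher and 939 lower in mut in solvent. With TGFβ1, 1685 were higher and 1492 lower at 6 h, 3672 and 1820 at 24 h, and 3864 and 1965 at 72 h. JUN, JUND, FOS and FOSL2 accounted for the 10 member calls. The 4 comparisons use different libraries but the same 4 clones.

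FOSL2 was called at 3 of the 4 treatments. Solvent libraries of WT had 154, 106, 149 and 158 CPM, all below the mut libraries with 194 to 255 CPM. At 6 h the WT libraries had 153, 121, 148 and 132.5 CPM against 202 to 252 CPM in mut. The log2 difference was 0.73 ± 0.13 (adjusted p = 0.000302) in solvent and 0.72 ± 0.13 (adjusted p = 0.000194) at 6 h. At 24 h it was 0.43 ± 0.13 (adjusted p = 0.0123), with the WT library 27-1 (167 CPM) inside the mut range, 0.36 (adjusted p = 0.0511) without 24 h 27-2 and 0.41 (adjusted p = 0.0699) with mut clone 65 alone. At 72 h the difference of 0.24 ± 0.13 did not pass the test (adjusted p = 0.16).

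JUN was higher in mut solvent cells, where the mean was 78.7 ± 9.27 CPM against 41.4 ± 6.20 CPM in WT and no library overlapped. The log2 difference was 0.93 ± 0.17 (adjusted p = 0.000406), called under every alternative run on it. It was 0.37 ± 0.15 (adjusted p = 0.0895) at 6 h, and 0.59 and called without the series 1-2 (adjusted p = 0.000166). It was 0.40 ± 0.15 (adjusted p = 0.042) at 24 h and 0.22 ± 0.15 (adjusted p = 0.256) at 72 h. The call at 24 h was lost with TMM factors (0.31, adjusted p = 0.135), edgeR (0.31, adjusted p = 0.13) and DESeq2 (0.32, adjusted p = 0.101). It was also lost without any of the 24 h libraries 27-2, 2-1, 2-2, 1-1, 1-2 or 65-2 (0.37 to 0.40, adjusted p = 0.0668 to 0.0922), without the series 27-2 (0.37, adjusted p = 0.0882), and with mut clone 1 alone (0.44, adjusted p = 0.0715).

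FOS was higher in mut cells at all 3 times with TGFβ1. The log2 difference was 0.27 ± 0.15 (adjusted p = 0.268) in solvent. With TGFβ1 it was 0.66 ± 0.15 (adjusted p = 0.00171) at 6 h, 1.03 ± 0.17 (adjusted p = 3.06e-05) at 24 h and 0.75 ± 0.18 (adjusted p = 0.00128) at 72 h. At 24 h the mut mean was 34.0 ± 5.36 CPM and the WT mean 16.5 ± 1.08 CPM, and the groups overlapped neither then nor at 72 h. At 6 h the mut library 1-2 (39.3 CPM) lay just below the highest WT library (39.45 CPM). The 3 called differences were called under every alternative run on them. The change of the difference from solvent is the interaction, which was called at 24 h but not at 6 h (0.39, adjusted p = 0.999) or 72 h (0.48, adjusted p = 0.187).

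JUND was higher in mut libraries in solvent (0.30 ± 0.08, adjusted p = 0.0146) and at 6 h (0.32 ± 0.08, adjusted p = 0.0061), without overlap of libraries. At 24 and 72 h the difference was 0.02 and 0.08 and did not pass the test. The solvent call was lost without solvent 1-1 (0.28, adjusted p = 0.0516), without solvent 27-2 (0.25, adjusted p = 0.0741) without the series 27-2 (0.25, adjusted p = 0.0803), with sums (0.30, adjusted p = 0.0831) and with either mut clone alone (adjusted p = 0.0716 and 0.0876). The call at 6 h was lost with clone 1 alone (0.29, adjusted p = 0.0733). FOSL1 had a difference of -0.35 ± 0.13 in solvent, which missed the threshold (adjusted p = 0.0699). The highest of its WT solvent libraries was 27-2 with 104.9 CPM.

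**Figure D4:**
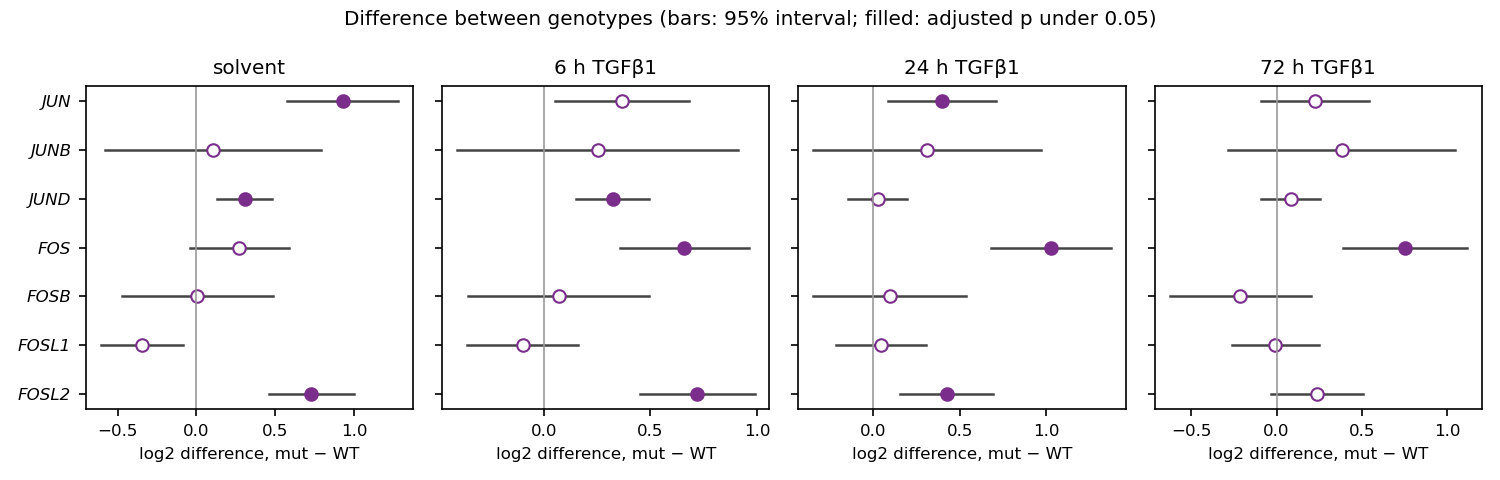
Log2 difference of mut minus WT (x axis, each panel with its own scale) for the 7 transcripts in solvent and at 6, 24 and 72 h of TGFβ1, with 95% intervals as bars; filled points passed the limma-voom test. FOSL2 and JUND are filled in solvent and at 6 h, FOS at all 3 times with TGFβ1, and the JUNB intervals span 0 in every panel.

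JUNB itself was called at no treatment, with differences of mut against WT of 0.10, 0.25, 0.31 and 0.38 in solvent and at 6, 24 and 72 h and 95% intervals of -0.58 to 0.79, -0.41 to 0.91, -0.35 to 0.97 and -0.28 to 1.04. Counts over the whole gene thus do not check the editing, and reads over the deleted stretch were not analysed here. The mut clones were compared by counts summed over the 4 libraries of a series, which left 2 sums for each clone. JUNB had 296 and 383 CPM in clone 65 and 159 and 177 CPM in clone 1, a log2 difference of 1.01 ± 0.12 (adjusted p = 0.0461), where 0.169% of 16000 genes were called. The adjusted p was 0.0558 with TMM factors, 0.054 with edgeR and 2.03e-12 with DESeq2. Leaving out a sum of clone 1, or the sum 65-2, also ended the call (0.82 to 1.08, adjusted p = 0.123 to 0.427).

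The other 6 members were not called between clones 65 and 1. The 95% intervals were -0.24 to 0.15 for JUN, -0.10 to 0.15 for JUND, -0.39 to 0.29 for FOS, -0.36 to 0.52 for FOSB, -0.31 to 0.31 for FOSL1 and -0.47 to 0.25 for FOSL2. Between the WT clones 2 and 27 limma-voom called 0 of 7 members, 0 had an unadjusted p under 0.05, edgeR and DESeq2 called 0, and 0.219% of all genes were called. JUNB differed there by 0.11 with a 95% interval of -0.18 to 0.40. With mut clone 65 alone, JUNB counted over the unedited gene was above WT by 0.61 in solvent (adjusted p = 0.0349) and 1.01 at 6 h (adjusted p = 0.000422). It was above WT by 0.71 at 24 h (adjusted p = 0.00455) and 0.76 at 72 h (adjusted p = 0.00181). With clone 1 alone it was at -0.41 (adjusted p = 0.265), -0.51 (adjusted p = 0.0973) and -0.09 (adjusted p = 0.763) in solvent, at 6 h and at 24 h.

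Over the 32 libraries, JUN and JUNB varied most closely together (Pearson r of log2 CPM 0.79), followed by FOS with FOSL2 (0.72) and JUND with FOSL2 (0.71). FOSL1 ran opposite to JUND (-0.48), FOS (-0.46) and FOSL2 (-0.43). The genes with the pattern most like each member were found among 9645 genes of at least 10 CPM. For JUN these were LTBP2, a latent TGFβ binding protein of the matrix (r = 0.957), the ephrin receptor EPHB2 (0.937) and the kinase DCLK1 (0.929). For JUNB they were SAT1, an enzyme of polyamine catabolism (0.903), FAM83G (0.9) and SEC14L2 (0.895). For JUND they were the corepressor TLE5 (0.863), DNAJC4 (0.803) and COX6A1 (0.801), a subunit of cytochrome c oxidase. For FOS they were GGT5 (0.924), the ectonucleotidase ENTPD2 (0.923) and SYT12 (0.917).

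For FOSL2 the closest genes were MFSD6 (0.945), the interferon gamma receptor chain IFNGR1 (0.933) and MAP2 (0.916), a microtubule-associated protein. For FOSL1 they were LETM2 (0.8), DMBT1 (0.795) and the membrane-cytoskeleton linker ezrin, EZR (0.759). FOSB had no close companion, with TMUB2 (0.613), STX5 (0.575) and RETREG3 (0.57). The libraries share clones, treatments and series, so these coefficients describe 32 related points and carry no test.

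The other genes of the pathway were taken from lists of partners, inducers and targets. Of 13 other basic leucine zipper partners, 12 were tested. In WT at 24 h, where 52.1% of all genes were called, 4 rose and 1 fell, with a median change of 0.20. MAFF, a small MAF protein, rose by 0.50 ± 0.12 (72.7 against 51.5 CPM, adjusted p = 0.000783). In mut against WT solvent, where 12.7% of all genes were called, 3 partners were higher and 0 lower, among them JDP2, a JUN dimerization partner that represses AP-1 sites (0.60 ± 0.19, 32.9 against 21.3 CPM, adjusted p = 0.0331).

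Of 16 further immediate early genes, 6 rose and 4 fell in WT at 24 h, against 52.1% of all genes called. GADD45B, a stress and TGFβ response gene, rose by 0.87 ± 0.14 (adjusted p = 7.43e-06), and BTG2, an antiproliferative gene, changed by -0.56 ± 0.12 (adjusted p = 0.000453). In mut solvent cells 7 of the 16 were higher and 1 was lower than in WT, against 12.7% of all genes. The zinc finger factor EGR1 stood at 389 ± 82.5 CPM in mut and 210.1 ± 31.7 CPM in WT solvent libraries (0.88 ± 0.17, adjusted p = 0.00055). MCL1, an anti-apoptotic gene, was lower, with 1043 against 1346 CPM (-0.37 ± 0.08, adjusted p = 0.00175). Of 16 kinases and factors upstream of AP-1, 4 rose and 4 fell in WT at 24 h, and 0 were higher and 3 lower in mut solvent, against the same 52.1% and 12.7%. ELK3, an ETS factor that acts with the serum response factor, rose in WT at 24 h (0.70 ± 0.08, adjusted p = 4.93e-08) and was lower in mut solvent cells (-0.41 ± 0.08, adjusted p = 0.000968). ELK4, its relative, changed in WT by -0.36 ± 0.09 at 24 h (adjusted p = 0.00194).

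Known AP-1 target genes formed the last list. Of 20 such genes, 15 rose and 0 fell in WT at 24 h (52.1% of all genes called), with a median log2 change of 1.54 against -0.18 over all genes. In mut at 24 h 11 rose and 1 fell (23.8% of all genes called), with a median of 0.90 against -0.10. At 24 h 14 of the 20 were lower and 1 was higher in mut than in WT (36.9% of all genes called), with a median of -0.95, while in solvent 4 were lower and 1 higher (12.7%), with a median of 0.02. The matrix metalloprotease MMP9 was lower in mut solvent cells (0.876 ± 1.098 against 3.92 ± 1.715 CPM, -2.75 ± 0.83, adjusted p = 0.0274). Both levels were low, and the SD in mut exceeded its mean. As an interaction, 4 of the 20 were called lower at 24 h and 2 at 72 h, where 9.65% and 12.3% of all genes were called in either direction.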

How the data were processed

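RNA was sequenced on a NovaSeq sequencer after library preparation with a TruSeq kit that keeps no strand. The authors trimmed reads with Trimmomatic, aligned them with STAR to GRCh38 of Ensembl and counted reads per gene. Tool versions and the strand setting of the counting are not given in the sources used here. The deposited values are raw counts per gene and library, without normalization, and 0 columns were left unused. A chi-square comparison of libraries within groups gave a smallest value per degree of freedom of 11.6, so each library was kept as its own sample.

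Symbols, coordinates and exon lengths came from GENCODE 44, which named 17763 of 17788 genes. Low counts were filtered with filterByExpr (edgeR 4.0.16, at its minimum count of 10 and total of 15). Libraries were scaled by size, as in the study, and limma 3.58.1 (R 4.3.3) fitted voom weights, linear models and moderated statistics. The model was ~0 + condition over 32 libraries, with 17 two-sided comparisons and Benjamini-Hochberg adjustment over 14865 genes. For clones, counts were summed over the 4 libraries of a series and fitted as 8 sums (2 comparisons, 16000 genes). Unless another tool is named, each adjusted p-value is from limma-voom. It measures the spread between these libraries of 4 clones, and reads are not independent molecules. The procedure was tested on simulated data.

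The labels tie the libraries of a series to 1 clone and replication. Deviations from the group mean correlated by 0.445 on average between libraries of 1 series (48 pairs, -0.105 to 0.805), by -0.00413 between replications of a clone and by -0.209 between clones. Each deviation is taken from the mean of 4 libraries, which pulls the values between series below 0. The value of -0.00413 therefore does not show that clones had no effect, and it lay above that between clones. As libraries of 1 series deviated together, fits with the series as a replicate block are given beside results they change.

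Members and gene lists were chosen with earlier results of these data known. Besides the members, the text names the 3 most similar genes of each member (Pearson r of log2 CPM, mean of at least 10 CPM) and, from each list, the called gene of at least 10 CPM over all libraries that changed most in each direction in WT at 24 h and in mut against WT solvent. Some genes this rule picks are not reported here. Alternatives were TMM factors, the edgeR quasi-likelihood test, DESeq2 1.42.0, no filter, a mean count of at least 50, sums of the replications of a clone, fits on the compared groups alone, blocks by series or replication number, other lengths and correlations, and leaving out each library. Leaving out the series 27-2 or 1-2, using 1 mut clone and joining TMM factors with the block were chosen after seeing the data.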

Additional observations from a re-analysis of the deposited data

Results flagged for a closer look

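Of 56 sets of 4 libraries (7 genes in 8 groups), 5 held a library far from the other 3, at a critical value that chance alone passes in about 1 of 20 sets. In WT solvent, the series 27-2 had 104.9 CPM of FOSL1, with 76.4 to 80.8 CPM in the other libraries, and 106.4 CPM of FOSL2, with 149 to 158 CPM in the others. The WT solvent library 2-1 had 116.8 CPM of JUNB, with 89.7 to 94.0 CPM in the others. At 6 h of TGFβ1, the mut library 1-2 had 113.9 CPM of JUN, with 205 to 219 CPM in the others. At 72 h, the mut library 65-2 had 85.7 CPM of JUND, with 71.7 to 73.8 CPM in the others.

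The response to TGFβ1 differed between genotypes by the interaction test for FOS at 24 h, with a log2 value of 0.76, and for JUN at 72 h, with -0.70. With mut clone 1 alone these were 0.93 (limma-voom adjusted p = 0.0799) and -0.45 (adjusted p = 0.382), and FOS with clone 65 alone gave 0.58 (adjusted p = 0.283). JUN kept its call with clone 65 alone, so that call was held by clone 65 and not by clone 1.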

How the results depend on the processing

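Of 33 called results on single members, 16 were called under every alternative run on them, 17 lost the call under at least 1, and 0 reversed. With the series as a replicate block (paired libraries), 10 of 21 TGFβ1 results in WT, 12 in mut, 7 interactions and 9 time steps were called, against 9, 10, 2 and 1 without it. The block added calls and ended no call that the text gives. With TMM factors and the block, 5 interactions and 10 time steps were called. Sums of the replications left 0 interactions. Interactions numbered 1 with no filter, 1 with edgeR, 4 with DESeq2, 0 with mut clone 1 alone and 1 with clone 65 alone. Clone 1 alone left 4 TGFβ1 results in mut. Time steps numbered 2 with TMM factors, edgeR or DESeq2, 2 without series 27-2 and 3 without 1-2. The clone difference gave 0 calls with TMM factors and with edgeR. For the block, the shares of all genes called on interactions and time steps are given above. For the other settings here and below such shares are not given. These counts therefore describe the fits and are not a result about the members. With Spearman correlation, 8 of 21 similar genes were named again.

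Leaving out 1 library gave 5 to 11 TGFβ1 calls in mut (5 without solvent 1-1), 0 to 3 interactions (0 without WT solvent 2-1 or 2-2 or mut solvent 65-2), 1 to 2 time steps and 0 to 1 clone calls. JUNB had uncalled values that changed sign. With mut clone 1 alone the genotype difference was -0.408 in solvent, -0.51 at 6 h and -0.0936 at 24 h, and the interaction at 6 h was -0.102. Without single libraries these ran from -0.139 to 0.301 in solvent, -0.0297 to 0.611 at 6 h, -0.134 to 0.507 for the interaction at 6 h, -0.00255 to 0.449 for that at 24 h and -0.0675 to 0.573 for mut from 6 to 24 h. The cause was not tested. The genotype difference at 24 h ran from 0.101 to 0.447. Depth limits FOSB alone, with 59 counts at the lowest.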
